A study of Homo sapiens with 16 samples.

Results

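The unfolded protein and amino acid stress response was described as 34 genes chosen by name, out of 23368 entries in the expression table. All 34 were found and all passed the filter on low values, a log2 value of at least about 3.3 in at least 2 of 16 libraries, which left 13564 genes to test. The genes fall into 3 sensors of the endoplasmic reticulum (ER), 12 genes of the ATF4 arm and 19 genes of the ER chaperone arm. Expression was measured by RNA sequencing in MCF10A, a non-tumorigenic human mammary epithelial cell line. Cells of a PHF8 stock, which overexpresses the histone demethylase PHF8, were set against cells of a Mock stock with the empty vector. Both stocks were harvested without treatment and 24, 48 and 72 h into exposure to 5 ng/ml TGF-β1, making 8 groups with n = 2 libraries in each. All groups were kept in medium with epidermal growth factor, cholera toxin, insulin, hydrocortisone and horse serum. There is 1 stock of each kind, and the promoter behind PHF8 and the number of clones in a stock are not given in the sources used here. The same untreated libraries serve all 3 times of a stock. No untreated library is labelled as matched to 24, 48 or 72 h, so TGF-β1 and time in culture cannot be told apart. Replicate 1 of every group was sequenced in round 1 and replicate 2 in round 2. The labels do not say that replicates were separate cultures, so each p-value rests on variation among these libraries alone, which may be technical.

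Secretory and membrane proteins fold in the ER, and unfolded protein there is sensed by IRE1 (gene ERN1), PERK (gene EIF2AK3) and ATF6. IRE1 splices the XBP1 messenger RNA, and the spliced form, with ATF6, switches on chaperones, disulfide isomerases and the machinery that degrades misfolded protein. PERK phosphorylates the translation factor eIF2, as do kinases that respond to amino acid shortage, and this favours translation of ATF4, a transcription factor for amino acid synthesis and for the stress factor CHOP (gene DDIT3). The values are per gene, so the spliced XBP1 form, cleavage of ATF6 and translation of ATF4 were not measured.

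The stock labels were checked by the level of PHF8, and the treatment and time labels were not checked. PHF8 itself lay between 13.64 and 14.73 on the log2 scale in the 8 PHF8 libraries and between 9.26 and 9.72 in the 8 Mock libraries. All 10 markers of basal mammary epithelium passed the filter, and their summed linear level lay between 228670.5 and 498622.1 in treated PHF8 libraries, between 123218.8 and 154015.9 in untreated PHF8 libraries, between 354301.5 and 480395.7 in treated Mock libraries and between 144660.8 and 175043.5 in untreated Mock libraries. Of 8 fibroblast markers, 3 passed the filter, and PDGFRA, PDGFRB, LUM, COL3A1 and THY1 were below it. The summed level of the list was higher in all treated than in untreated Mock libraries, while treated and untreated PHF8 libraries overlapped. In the PHF8 stock it was 480.6 to 5174.3 untreated, 1830.7 to 8091 at 24 h, 1886.4 to 4102.3 at 48 h and 1586.1 to 3878.3 at 72 h. In the Mock stock it was 321.6 to 970.9 untreated, 1715.5 to 1963.1 at 24 h, 1208 to 1979.9 at 48 h and 1327.6 to 1434.9 at 72 h. Among 8 endothelial and blood markers CD3E and HBB were listed at 0 in all 16 libraries. VWF, CDH5 and PTPRC were below the filter. The summed level of that list was 804.7 to 1231.2 in treated and 701 to 866.1 in untreated PHF8 libraries. It was 586.2 to 974.8 in treated and 388.2 to 396.8 in untreated Mock libraries. Treated and untreated libraries overlapped in the PHF8 stock and not in the Mock stock. Between stocks, treated libraries overlapped and untreated ones did not. Of 8 luminal breast markers 5 passed the filter, and KRT19, ELF5 and PGR were below it, with PGR listed at 0. The summed level of the luminal list was 10497.6 to 13522.1 in treated and 8707.9 to 12290.1 in untreated PHF8 libraries. In the Mock stock it was 11572.1 to 13272.6 in treated and 9895.8 to 11498 in untreated libraries. Such sums follow the most abundant genes of a list. The median log2 difference of the 10 basal markers was 0.33 at 24 h and -0.13 at 72 h in the PHF8 stock. In the Mock stock it was 0.31 and 0.02. For the 5 tested luminal markers the median was -0.45 at 24 h and -0.28 at 72 h in the PHF8 stock. It was -0.31 at both times in the Mock stock. The part of these markers in the results was not tested. In bulk RNA, a changed share of cells and a changed amount of RNA per cell cannot be told apart.

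Short promoter windows are shown first, because several ER chaperone arm genes share letters there. The ER stress element (ERSE) was searched as CCAAT and CCACG with any 9 bases between them, ERSE-II as ATTGG and CCACG with any 1 base between them, and the ATF4-type element (CARE, an amino acid response element) as TGATGNAA, each on both strands, in the 250 bases before each start site listed by RefSeq on GRCh38.p14. Of the 34 genes, 32 had a promoter in that table and 10 of them more than 1 start site; SHMT2 and PDIA3 had none. Each window is written 5′ to 3′ along the gene, and capitals mark the fixed letters of the element, which appear as their reverse complement where the match is on the other strand.
XBP1, chr22:28800583-28800641, minus strand: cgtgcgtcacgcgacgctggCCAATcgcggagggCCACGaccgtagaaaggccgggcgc
HSPA5, chr9:125241371-125241429, minus strand: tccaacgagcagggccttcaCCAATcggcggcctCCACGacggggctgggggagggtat
HSP90B1, chr12:103930196-103930254, plus strand: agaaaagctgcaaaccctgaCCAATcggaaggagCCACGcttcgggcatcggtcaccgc
CALR, chr19:12938364-12938422, plus strand: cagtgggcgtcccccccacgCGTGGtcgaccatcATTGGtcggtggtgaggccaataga
CRELD2, chr22:49918534-49918592, plus strand: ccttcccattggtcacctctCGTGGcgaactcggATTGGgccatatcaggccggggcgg
PDIA6, chr2:10812833-10812891, minus strand: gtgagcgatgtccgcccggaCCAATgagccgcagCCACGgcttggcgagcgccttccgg
CANX, chr5:179698758-179698816, plus strand: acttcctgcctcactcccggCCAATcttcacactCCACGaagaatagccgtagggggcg
HYOU1, chr11:119057360-119057410, minus strand: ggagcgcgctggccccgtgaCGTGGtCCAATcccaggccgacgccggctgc
SDF2L1, chr22:21642094-21642144, plus strand: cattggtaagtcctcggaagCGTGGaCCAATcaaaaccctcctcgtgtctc
HERPUD1, chr16:56932005-56932055, plus strand: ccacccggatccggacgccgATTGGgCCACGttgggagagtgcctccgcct
ATF3, chr1:212565196-212565243, plus strand: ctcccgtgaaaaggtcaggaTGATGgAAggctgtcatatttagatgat
CHAC1, chr15:40953242-40953289, plus strand: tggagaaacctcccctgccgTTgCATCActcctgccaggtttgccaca
ASNS, chr7:97872449-97872496, minus strand: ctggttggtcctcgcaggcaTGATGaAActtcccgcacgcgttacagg

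ERSE letters were found in 7 of the 18 ER chaperone arm genes with a promoter, in 0 of 11 ATF4 arm genes and in 0 of 3 sensors. Over all 35093 promoters of the table, counted by promoter and not by gene, 0.0741% held them. By gene, they were held by 15 of the 9362 tested genes with a promoter, and the 7 are among these 15. ERSE-II letters, present in 0.0513% of all promoters and in 14 of the 9362 genes, were found in HYOU1, SDF2L1 and HERPUD1. CARE letters are shorter and lie in 3.15% of all promoters and in 232 of the 9362 genes. They were found in ATF3, CHAC1 and ASNS, 3 of the 11 ATF4 arm genes, and in HERPUD1. HSP90B1 and HYOU1 each held their element at a further position, on the other strand in HSP90B1. A match is a description of letters and not of binding, and a gene without one is only a gene without these letters in this window. The searched letters are those of elements already known from stress genes of these kinds, so the counts beside all promoters are not a test.

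Most genes of the ER chaperone arm were higher after TGF-β1 in both stocks, while PSAT1 of the ATF4 arm was lower. No gene of the ATF4 arm was called higher unless the sequencing round was fitted as a block, which added TRIB3 in 1 comparison. After 24 h, 14 of the 19 ER chaperone arm genes were called higher in the PHF8 stock and 15 in the Mock stock, at an adjusted p under 0.05 in limma (Benjamini-Hochberg over all tested genes). Of all tested genes, 7.01% were called higher at 24 h in the PHF8 stock and 9.92% in the Mock stock. The median log2 difference of the arm was 0.70 in the PHF8 stock and 0.69 in the Mock stock, while the median over all tested genes lay at -0.0096 in the PHF8 stock and -0.0034 in the Mock stock. Of the 12 ATF4 arm genes, 0 were called higher in limma without the block at 24, 48 or 72 h in either stock, and 0 had an unadjusted p under 0.05 with a positive difference. With the block TRIB3 was called higher at 24 h in the PHF8 stock, 1 of 12 genes beside 14.9% of all tested genes. The medians of that arm ran between -0.04 and 0.10. The map of log2 differences shows the block of ER chaperone arm genes and the mostly paler ATF4 arm above it.

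**Figure D1:**
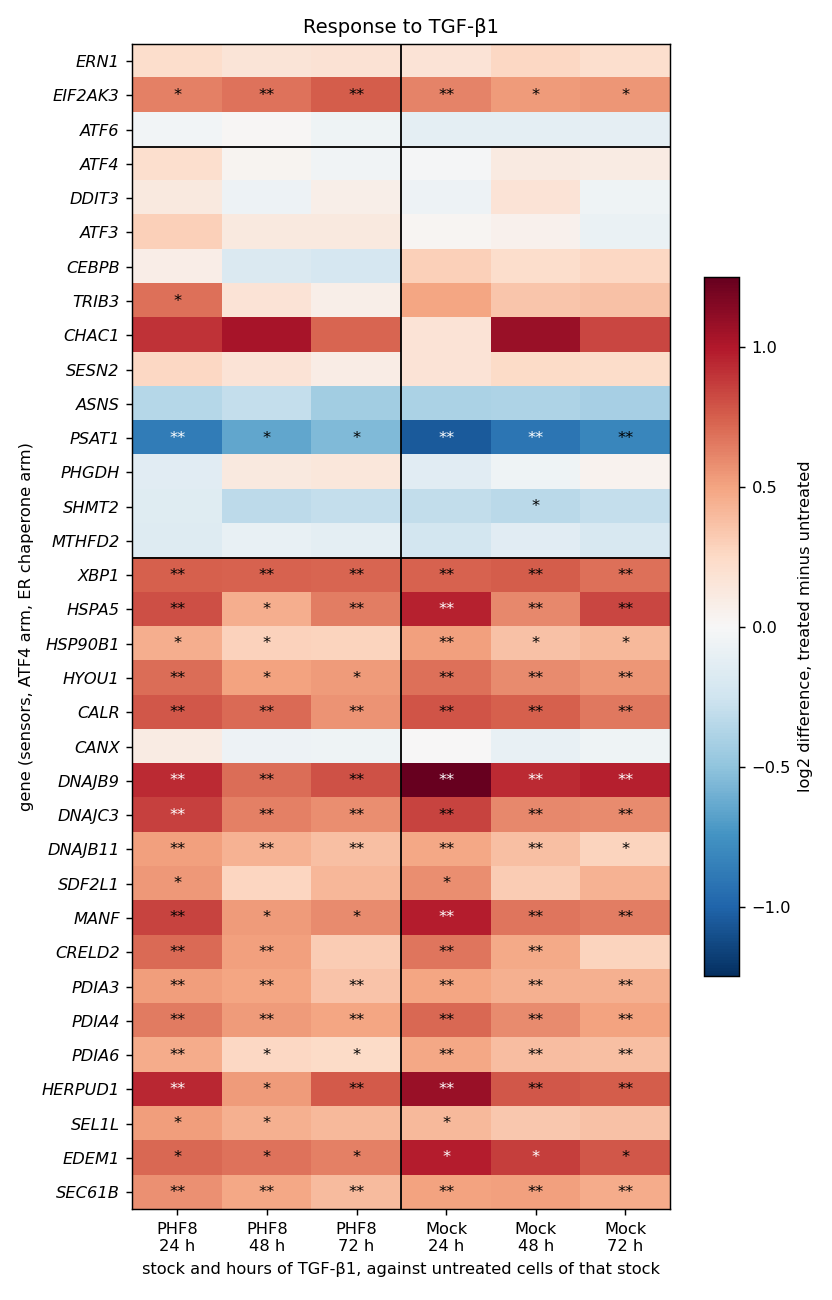
Log2 difference between TGF-β1-treated and untreated cells for each of the 34 genes (rows) in each stock and at each time (columns), on a colour scale centred on 0 and reaching the largest difference shown on either side. Double asterisks mark genes called in limma without the round as a block and single asterisks those called only with it; XBP1 is called in all 6 columns and CANX in none.

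Later times kept fewer calls without a turn in direction. At 48 h, 9 of 19 ER chaperone arm genes were called higher in the PHF8 stock (6.92% of all genes) and 14 in the Mock stock (9.72%). At 72 h the counts were 10 in the PHF8 stock (5.22% of all genes) and 12 in the Mock stock (8.29%). The medians of the arm were 0.50 at both times in the PHF8 stock, and 0.59 at 48 h and 0.50 at 72 h in the Mock stock. No ER chaperone arm gene was called lower at any time. Counted over single libraries, all 6 treated libraries stood above both untreated ones in 16 of the 19 genes in the PHF8 stock, against 17% of all tested genes, and in 17 of 19 in the Mock stock, against 21.8%.

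Fitting the sequencing round as a block raised these counts, in the ER chaperone arm and in all genes alike. Over all 34 members, higher or lower, 15, 10 and 11 were called at 24, 48 and 72 h in the PHF8 stock without the block, beside 11.7%, 12.6% and 9.39% of all tested genes, and 17, 15 and 13 in the Mock stock, beside 17.3%, 17.3% and 14.4%. The block made these 21, 19 and 16 in the PHF8 stock, beside 29.3%, 28.2% and 23.4% of all genes, and 20, 19 and 17 in the Mock stock, beside 35.9%, 34.9% and 31.5%. With the block, 18, 17 and 14 ER chaperone arm genes were called higher at 24, 48 and 72 h in the PHF8 stock, beside 14.9%, 14.4% and 11.8% of all tested genes. The Mock stock gave 18, 16 and 15, beside 18.4%, 18.1% and 16.4% of all genes. CANX was the gene left without a call at 24 h in both stocks.

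The calls without the block leaned on the untreated round 2 libraries. Without that library of the PHF8 stock, the members called fell to 5 at 24 h, 3 at 48 h and 1 at 72 h, against 15, 10 and 11 with all libraries. All genes called fell with them, to 329, 567 and 394, against 1590, 1710 and 1273. Without that library of the Mock stock the members called fell to 11, 5 and 3, against 17, 15 and 13, and all genes called fell to 649, 791 and 619, against 2348, 2346 and 1948. Single treated libraries moved the count as well. In the PHF8 stock it was 5 at 48 h without either 48 h library, and at 72 h it was 2 without the round 1 library and 3 without the round 2 library. In the Mock stock it was 6 at 48 h without the round 2 library, and at 72 h it was 7 without the round 1 library and 4 without the round 2 library. All genes called fell in these refits too, to 885 and 653 at 48 h and 469 and 552 at 72 h in the PHF8 stock, and to 794 at 48 h and 850 and 840 at 72 h in the Mock stock. Each of the 81 called values was refitted 16 times with 1 library left out, and 183 of these 1296 refits lost the call, although no called value turned its sign. For 53 of the 81 calls, leaving out the untreated round 2 library of the same stock was enough.

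Among the sensors, EIF2AK3 (PERK) was higher after TGF-β1 and ERN1 and ATF6 were not called. EIF2AK3 in the PHF8 stock stood at 9.27 and 9.10 untreated, 9.96 and 9.67 at 24 h, 10.10 and 9.62 at 48 h, and 10.16 and 9.72 at 72 h (round 1 and round 2 in each pair). EIF2AK3 in the Mock stock stood at 9.16 and 9.05 untreated, 9.85 and 9.61 at 24 h, 9.77 and 9.51 at 48 h, and 9.67 and 9.64 at 72 h. Every treated library lay above both untreated libraries of its stock. The log2 difference in the PHF8 stock was 0.63 ± 0.192 at 24 h (SE, n = 2 per group, adjusted p = 0.0566 in limma), 0.68 ± 0.192 at 48 h (adjusted p = 0.0406) and 0.76 ± 0.192 at 72 h (adjusted p = 0.0308). In the Mock stock it was 0.62 ± 0.192 at 24 h (adjusted p = 0.0468), 0.54 ± 0.192 at 48 h (adjusted p = 0.0802) and 0.55 ± 0.192 at 72 h (adjusted p = 0.082). With the block all 6 were called, with adjusted p up to 0.00369. EIF2AK3 lost 20 of 48 refits, among them all 3 calls without either untreated library of the stock.

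ERN1 ranged between 6.93 and 7.60 over the 16 libraries, and its log2 differences ran between 0.16 and 0.26. ATF6 ranged between 11.24 and 11.50, with differences between -0.13 and 0.01. The 95% interval of the largest ERN1 difference, in the Mock stock at 48 h, was -0.27 to 0.79, wide enough to hold a rise of the size seen in EIF2AK3.

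XBP1, whose product drives chaperone and degradation genes, rose in all 6 comparisons. XBP1 in the PHF8 stock stood at 10.86 and 10.72 untreated, 11.58 and 11.50 at 24 h, 11.50 and 11.55 at 48 h, and 11.50 and 11.54 at 72 h. XBP1 in the Mock stock stood at 10.72 and 10.85 untreated, 11.49 and 11.54 at 24 h, 11.44 and 11.65 at 48 h, and 11.40 and 11.55 at 72 h. Treated and untreated libraries did not overlap, and the 12 treated libraries of both stocks lay between 11.40 and 11.65. The log2 difference was 0.75 ± 0.102 at 24 h, 0.74 ± 0.102 at 48 h and 0.73 ± 0.102 at 72 h in the PHF8 stock (SE, n = 2 per group), with adjusted p = 0.0017, 0.00137 and 0.00192. Mock cells gave 0.73 ± 0.102, 0.76 ± 0.102 and 0.69 ± 0.102 at the same times, with adjusted p = 0.00124, 0.000794 and 0.00147. These are rises of 1.61-fold to 1.69-fold. XBP1 lost 0 of 96 refits with 1 library left out, and its highest adjusted p among them was 0.0255.

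**Figure D2:**
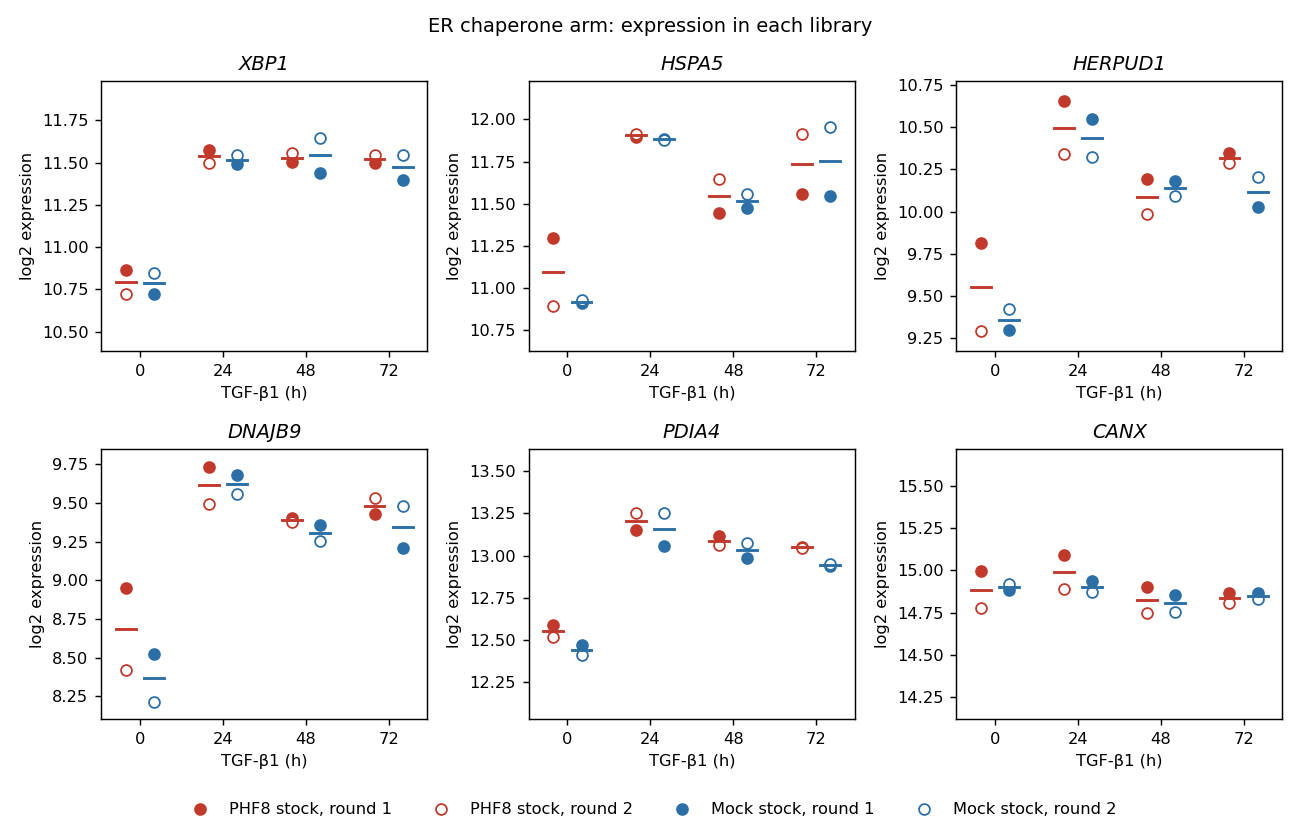
Log2 expression of XBP1, HSPA5, HERPUD1, DNAJB9, PDIA4 and CANX (vertical axis) in each library against hours of TGF-β1 (horizontal axis), with filled points for round 1, open points for round 2, PHF8 in red left of Mock in blue, and bars at the mean of 2 libraries. All treated libraries stand above both untreated libraries of their stock in 5 panels, and in the CANX panel they overlap.

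HSPA5 encodes BiP, the main ER chaperone, which also holds the sensors inactive. HSPA5 in the PHF8 stock stood at 11.30 and 10.90 untreated, 11.90 and 11.91 at 24 h, 11.44 and 11.65 at 48 h, and 11.56 and 11.91 at 72 h. HSPA5 in the Mock stock stood at 10.91 and 10.93 untreated, 11.88 and 11.88 at 24 h, 11.47 and 11.56 at 48 h, and 11.55 and 11.96 at 72 h. The untreated PHF8 libraries differed by more than the untreated Mock libraries, and all treated libraries lay above them. The log2 difference in the PHF8 stock was 0.81 ± 0.167 at 24 h (SE, n = 2 per group, adjusted p = 0.0117 in limma), 0.45 ± 0.167 at 48 h (adjusted p = 0.108, with the block 0.0473) and 0.64 ± 0.167 at 72 h (adjusted p = 0.036). Mock cells gave 0.96 ± 0.167, 0.60 ± 0.167 and 0.83 ± 0.167, called at each time (adjusted p = 0.00358, 0.0312 and 0.00735). Within rounds, the PHF8 difference at 48 h was 0.15 in round 1 and 0.75 in round 2. HSPA5 lost 15 of 80 refits, including 4 of its 5 calls without the untreated round 2 library of the stock.

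HYOU1 encodes a large ER chaperone of the HSP70 group that works beside BiP. HYOU1 in the PHF8 stock stood at 12.40 and 11.99 untreated, 13.03 and 12.75 at 24 h, 12.73 and 12.65 at 48 h, and 12.74 and 12.71 at 72 h. HYOU1 in the Mock stock stood at 12.30 and 12.00 untreated, 12.94 and 12.73 at 24 h, 12.84 and 12.63 at 48 h, and 12.75 and 12.65 at 72 h. All treated libraries lay above the untreated ones, and round 2 lay below round 1 in all 8 groups. The difference was 0.70 ± 0.159 at 24 h in the PHF8 stock (adjusted p = 0.0182 in limma) and 0.69 ± 0.159 in the Mock stock (adjusted p = 0.0144). It stayed called at 48 and 72 h in the Mock stock (0.59 and 0.55). In the PHF8 stock the later values of 0.50 and 0.53 had adjusted p = 0.0634 and 0.0609, and 0.00273 and 0.0024 with the block. HYOU1 lost 14 of 64 refits, all 4 calls among them without the untreated round 2 library.

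CALR encodes calreticulin, a chaperone of newly made glycoproteins. CALR in the PHF8 stock stood at 13.98 and 13.70 untreated, 14.60 and 14.61 at 24 h, 14.50 and 14.59 at 48 h, and 14.35 and 14.44 at 72 h. CALR in the Mock stock stood at 13.88 and 13.68 untreated, 14.57 and 14.55 at 24 h, 14.46 and 14.60 at 48 h, and 14.44 and 14.44 at 72 h. The groups did not overlap in either stock. CALR was called in all 6 comparisons, with differences between 0.56 ± 0.115 (adjusted p = 0.0125 in limma) in the PHF8 stock at 72 h and 0.78 ± 0.115 (adjusted p = 0.00159) in the Mock stock at 24 h. It lost 3 of 96 refits, all of them at 72 h in the PHF8 stock: without either 72 h library, or without the untreated round 2 library. CANX, the membrane-bound partner of calreticulin, gave a contrast. CANX ranged between 14.75 and 15.09 over all 16 libraries, its differences ran between -0.10 and 0.11, and treated and untreated libraries overlapped in both stocks. Its outermost 95% bounds were -0.35 in the Mock stock at 48 h and 0.36 in the PHF8 stock at 24 h, where CALR had 0.75 and 0.77.

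Co-chaperones of BiP rose as well. DNAJB9, also named ERdj4, is induced by ER stress. DNAJB9 in the PHF8 stock stood at 8.95 and 8.42 untreated, 9.74 and 9.49 at 24 h, 9.40 and 9.37 at 48 h, and 9.43 and 9.53 at 72 h. DNAJB9 in the Mock stock stood at 8.53 and 8.22 untreated, 9.68 and 9.56 at 24 h, 9.36 and 9.25 at 48 h, and 9.21 and 9.48 at 72 h. Treated libraries lay above untreated ones throughout, and the untreated libraries differed between rounds by more than the treated ones. The difference in the PHF8 stock was 0.93 ± 0.18 at 24 h, 0.70 ± 0.18 at 48 h and 0.79 ± 0.18 at 72 h (adjusted p = 0.00876, 0.0269 and 0.0196 in limma). In the Mock stock it was 1.25 ± 0.18, 0.93 ± 0.18 and 0.97 ± 0.18 (adjusted p = 0.00138, 0.00532 and 0.00489), and its 2.38-fold rise at 24 h was the largest of the arm. DNAJB9 lost 11 of 96 refits, including 5 of its 6 calls without the untreated round 2 library.

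DNAJC3, also named p58IPK, is a co-chaperone known to restrain PERK. DNAJC3 in the PHF8 stock stood at 12.03 and 11.70 untreated, 12.82 and 12.62 at 24 h, 12.52 and 12.47 at 48 h, and 12.50 and 12.39 at 72 h. DNAJC3 in the Mock stock stood at 11.85 and 11.74 untreated, 12.67 and 12.61 at 24 h, 12.26 and 12.52 at 48 h, and 12.34 and 12.42 at 72 h. All groups of treated cells lay above the untreated ones and both stocks peaked at 24 h. The difference was 0.86 ± 0.128 in the PHF8 stock at 24 h (adjusted p = 0.00253 in limma) and 0.85 ± 0.128 in the Mock stock (adjusted p = 0.0017). The 48 and 72 h values, 0.63 and 0.58 in the PHF8 stock and 0.60 and 0.59 in the Mock stock, were called as well. DNAJC3 lost 10 of 96 refits, all at 48 and 72 h and 4 of them without the untreated round 2 library.

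DNAJB11, also named ERdj3, binds unfolded clients of BiP. DNAJB11 in the PHF8 stock stood at 10.18 and 10.16 untreated, 10.64 and 10.73 at 24 h, 10.60 and 10.61 at 48 h, and 10.50 and 10.60 at 72 h. DNAJB11 in the Mock stock stood at 10.38 and 10.29 untreated, 10.84 and 10.79 at 24 h, 10.68 and 10.74 at 48 h, and 10.51 and 10.71 at 72 h. The treated libraries were higher than the untreated ones in both stocks, with smaller differences than for DNAJB9. The difference was 0.51 ± 0.0958, 0.43 ± 0.0958 and 0.38 ± 0.0958 at 24, 48 and 72 h in the PHF8 stock, each called in limma (adjusted p up to 0.0309). Values of 0.48 ± 0.0958 and 0.38 ± 0.0958 in the Mock stock were called, and 0.27 ± 0.0958 at 72 h had adjusted p = 0.0811, or 0.0254 with the block. DNAJB11 lost 12 of 80 refits, including all 5 calls without the untreated round 2 library.

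MANF and CRELD2 are secreted proteins that ER stress induces. MANF in the PHF8 stock stood at 10.22 and 10.24 untreated, 10.89 and 11.27 at 24 h, 10.57 and 10.96 at 48 h, and 10.67 and 10.98 at 72 h. MANF in the Mock stock stood at 10.14 and 10.17 untreated, 10.95 and 11.31 at 24 h, 10.73 and 10.90 at 48 h, and 10.63 and 10.94 at 72 h. Round 2 was higher than round 1 in all 8 groups, and all treated libraries stood above the untreated ones. The difference was 0.85 ± 0.186 at 24 h in the PHF8 stock (adjusted p = 0.0153 in limma), and 0.98 ± 0.186 at 24 h (adjusted p = 0.00561), 0.66 at 48 h and 0.63 at 72 h in the Mock stock, all called. At 48 and 72 h in the PHF8 stock, 0.54 and 0.59 had adjusted p = 0.0865 and 0.0719, and 0.00345 and 0.00239 with the block. MANF lost 16 of 64 refits, 3 of its 4 calls among them without the untreated round 2 library.

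CRELD2 in the PHF8 stock stood at 8.83 and 8.64 untreated, 9.39 and 9.48 at 24 h, 9.32 and 9.18 at 48 h, and 9.08 and 9.03 at 72 h. CRELD2 in the Mock stock stood at 8.78 and 8.65 untreated, 9.28 and 9.49 at 24 h, 9.22 and 9.15 at 48 h, and 9.09 and 8.89 at 72 h. Its values were highest at 24 h and nearer to the untreated ones at 72 h, without overlap. The difference was 0.70 ± 0.128 at 24 h and 0.52 ± 0.128 at 48 h in the PHF8 stock, and 0.67 ± 0.128 and 0.47 ± 0.128 in the Mock stock, all called in limma (adjusted p up to 0.0274). At 72 h, 0.32 in the PHF8 stock and 0.27 in the Mock stock were not called (adjusted p = 0.151 and 0.184). CRELD2 lost 10 of 64 refits, including all 4 calls without the untreated round 2 library.

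The remaining chaperones were HSP90B1 (GRP94, the ER form of HSP90) and SDF2L1 (a partner of the BiP cycle). HSP90B1 in the PHF8 stock stood at 14.07 and 14.15 untreated, 14.42 and 14.71 at 24 h, 14.38 and 14.42 at 48 h, and 14.29 and 14.49 at 72 h. HSP90B1 in the Mock stock stood at 13.93 and 14.11 untreated, 14.34 and 14.72 at 24 h, 14.26 and 14.50 at 48 h, and 14.34 and 14.51 at 72 h. Round 2 lay above round 1 in all 8 groups, and all treated libraries lay above the untreated ones of their stock. HSP90B1 rose by 0.51 ± 0.155 at 24 h in the Mock stock (adjusted p = 0.0434 in limma). That call was lost in 11 of 16 refits, by leaving out libraries of either stock. Its other differences ran between 0.28 and 0.45, and 4 of those 5 were called only with the block. SDF2L1 in the PHF8 stock stood at 7.85 and 7.78 untreated, 8.35 and 8.37 at 24 h, 8.33 and 7.84 at 48 h, and 8.20 and 8.26 at 72 h. SDF2L1 in the Mock stock stood at 8.04 and 7.57 untreated, 8.55 and 8.21 at 24 h, 8.28 and 7.96 at 48 h, and 8.26 and 8.21 at 72 h. Treated and untreated libraries overlapped in both stocks. SDF2L1 had differences between 0.27 and 0.58. They were called only with the block and only at 24 h, with adjusted p = 0.0227 in the PHF8 stock and 0.0142 in the Mock stock.

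The disulfide isomerases, which form and rearrange disulfide bonds in the ER, rose together and with small errors. PDIA4 in the PHF8 stock stood at 12.59 and 12.52 untreated, 13.15 and 13.25 at 24 h, 13.12 and 13.06 at 48 h, and 13.05 and 13.05 at 72 h. PDIA4 in the Mock stock stood at 12.47 and 12.41 untreated, 13.06 and 13.25 at 24 h, 12.99 and 13.08 at 48 h, and 12.94 and 12.95 at 72 h. The lowest treated library of each stock lay above its highest untreated library. The difference in the PHF8 stock was 0.65 ± 0.0909, 0.54 ± 0.0909 and 0.50 ± 0.0909 at 24, 48 and 72 h (adjusted p = 0.00187, 0.00393 and 0.00708 in limma), and 0.72 ± 0.0909, 0.59 ± 0.0909 and 0.50 ± 0.0909 in the Mock stock (adjusted p = 0.00074, 0.00163 and 0.00423). PDIA4 lost 2 of 96 refits, both at 72 h in the PHF8 stock, without the round 1 library of that time or the untreated round 2 library.

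PDIA3, also named ERp57, acts on glycoproteins held by calreticulin and calnexin. PDIA3 in the PHF8 stock stood at 12.70 and 12.64 untreated, 13.15 and 13.24 at 24 h, 13.11 and 13.23 at 48 h, and 13.00 and 13.06 at 72 h. PDIA3 in the Mock stock stood at 12.59 and 12.68 untreated, 13.08 and 13.17 at 24 h, 12.98 and 13.18 at 48 h, and 13.04 and 13.11 at 72 h. The groups did not overlap. The difference lay between 0.35 ± 0.0978 in the PHF8 stock at 72 h (adjusted p = 0.0441 in limma) and 0.52 ± 0.0978 in the PHF8 stock at 24 h (adjusted p = 0.00728), and all 6 were called. PDIA3 lost 24 of 96 refits, 14 of them at 72 h in the PHF8 stock, where libraries of every group but 1 could end the call.

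PDIA6 is an isomerase known to bind BiP and to regulate IRE1. PDIA6 in the PHF8 stock stood at 12.11 and 12.01 untreated, 12.55 and 12.49 at 24 h, 12.31 and 12.33 at 48 h, and 12.26 and 12.32 at 72 h. PDIA6 in the Mock stock stood at 12.01 and 11.94 untreated, 12.40 and 12.52 at 24 h, 12.36 and 12.36 at 48 h, and 12.33 and 12.38 at 72 h. Every treated library was higher than the untreated ones, with the 24 h libraries highest. The difference was 0.46 ± 0.084 at 24 h in the PHF8 stock and 0.48 ± 0.084 in the Mock stock (adjusted p = 0.00631 and 0.00381 in limma). It stayed called at 48 and 72 h in the Mock stock (0.38 and 0.37). In the PHF8 stock 0.26 and 0.24 had adjusted p = 0.0651 and 0.11, and 0.0207 and 0.0382 with the block. PDIA6 lost 6 of 64 refits, 3 of its 4 calls among them without the untreated round 2 library.

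Genes of degradation and of entry into the ER rose as well. HERPUD1 encodes a membrane protein of the ER degradation complex. HERPUD1 in the PHF8 stock stood at 9.81 and 9.29 untreated, 10.65 and 10.34 at 24 h, 10.19 and 9.99 at 48 h, and 10.35 and 10.29 at 72 h. HERPUD1 in the Mock stock stood at 9.30 and 9.42 untreated, 10.55 and 10.32 at 24 h, 10.18 and 10.09 at 48 h, and 10.03 and 10.20 at 72 h. The untreated PHF8 libraries lay further apart than any other pair, and the treated ones were all above them. The difference in the PHF8 stock was 0.94 ± 0.172 at 24 h (adjusted p = 0.00652 in limma), 0.53 ± 0.172 at 48 h (adjusted p = 0.0655, with the block 0.0164) and 0.76 ± 0.172 at 72 h (adjusted p = 0.0188). In the Mock stock it was 1.08 ± 0.172, a 2.11-fold rise, at 24 h (adjusted p = 0.0023), with 0.78 at 48 h and 0.76 at 72 h, both called. HERPUD1 lost 10 of 80 refits, 4 of its 5 calls among them without the untreated round 2 library.

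SEC61B is a subunit of the channel through which proteins enter the ER. SEC61B in the PHF8 stock stood at 10.40 and 10.27 untreated, 10.89 and 10.92 at 24 h, 10.84 and 10.80 at 48 h, and 10.76 and 10.69 at 72 h. SEC61B in the Mock stock stood at 10.47 and 10.46 untreated, 10.93 and 11.00 at 24 h, 10.99 and 10.97 at 48 h, and 11.03 and 10.83 at 72 h. Untreated and treated libraries did not overlap. The difference lay between 0.39 ± 0.0935 in the PHF8 stock at 72 h (adjusted p = 0.0233 in limma) and 0.57 ± 0.0935 in the PHF8 stock at 24 h (adjusted p = 0.00391), and all 6 were called. SEC61B lost 6 of 96 refits, 3 of them without the untreated round 2 library of the stock.

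EDEM1, which hands misfolded glycoproteins to degradation, and SEL1L, which links them to the ubiquitin ligase, had positive differences and were called only with the block. EDEM1 in the PHF8 stock stood at 10.85 and 11.18 untreated, 11.38 and 12.09 at 24 h, 11.33 and 12.06 at 48 h, and 11.40 and 11.89 at 72 h. EDEM1 in the Mock stock stood at 10.86 and 11.28 untreated, 11.92 and 12.17 at 24 h, 11.59 and 12.28 at 48 h, and 11.55 and 12.15 at 72 h. All treated libraries lay above both untreated ones, and the rounds lay apart at every time. The EDEM1 differences ran between 0.62 and 0.98. EDEM1 was higher in round 2 in all 8 groups, and with the block all 6 differences were called (adjusted p up to 0.0034). SEL1L in the PHF8 stock stood at 11.18 and 10.56 untreated, 11.66 and 11.12 at 24 h, 11.49 and 11.15 at 48 h, and 11.45 and 11.10 at 72 h. SEL1L in the Mock stock stood at 10.80 and 10.73 untreated, 11.31 and 11.04 at 24 h, 11.11 and 11.08 at 48 h, and 11.15 and 11.11 at 72 h. Treated and untreated libraries overlapped in the PHF8 stock and did not in the Mock stock. SEL1L had differences between 0.33 and 0.52, lay lower in round 2 in all 8 groups, and was called with the block at 24 and 48 h in the PHF8 stock and at 24 h in the Mock stock.

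By value, the rise was larger at 24 h than at 72 h, and the share of all tested genes with that order was not computed. In both stocks, all 19 ER chaperone arm genes had a larger log2 difference at 24 h than at 72 h, although all times of a stock share its untreated libraries. The 24 h difference was the largest of the 3 times for all 19 in the PHF8 stock and for 17 in the Mock stock, where XBP1 and SEC61B had slightly larger differences at 48 h. The drop itself was compared as 72 h against 24 h over both stocks, a test chosen after the values were seen. It gave 0 called members in limma, where 0.0295% of all genes were called, and 6 members at an unadjusted p under 0.05 beside 1293 of all tested genes. CRELD2 averaged 9.02 at 72 h and 9.41 at 24 h, a difference of -0.39 ± 0.0903 (SE, n = 4 per time), with adjusted p = 0.342, or 0.0492 with the block, where 0.892% of all genes were called. It was the only member called with the block.

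Without the block, no such rise was called in the ATF4 arm. ATF4 itself, the transcription factor of the arm, moved by less than its spread. ATF4 in the PHF8 stock stood at 12.88 and 12.87 untreated, 13.18 and 12.98 at 24 h, 12.71 and 13.10 at 48 h, and 12.69 and 12.96 at 72 h. ATF4 in the Mock stock stood at 12.69 and 13.22 untreated, 12.79 and 13.10 at 24 h, 12.86 and 13.28 at 48 h, and 13.15 and 12.97 at 72 h. Treated and untreated libraries overlapped in both stocks. The difference ran between -0.05 ± 0.208 and 0.21 ± 0.208 in the PHF8 stock and between -0.01 ± 0.208 and 0.12 ± 0.208 in the Mock stock, with adjusted p of 0.574 or more in limma. The highest upper bound of a 95% interval was 0.66, for the PHF8 stock at 24 h.

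DDIT3, which encodes CHOP, a factor linked to cell death under lasting stress, was not called either. DDIT3 in the PHF8 stock stood at 6.78 and 6.87 untreated, 6.91 and 6.98 at 24 h, 6.83 and 6.71 at 48 h, and 7.04 and 6.76 at 72 h. DDIT3 in the Mock stock stood at 6.16 and 6.85 untreated, 6.33 and 6.56 at 24 h, 6.67 and 6.68 at 48 h, and 6.45 and 6.45 at 72 h. The untreated Mock libraries spanned most of the range of all libraries. The difference was 0.12 ± 0.213, -0.06 ± 0.213 and 0.07 ± 0.213 in the PHF8 stock at 24, 48 and 72 h, and -0.06 ± 0.213, 0.17 ± 0.213 and -0.05 ± 0.213 in the Mock stock, none of them called in limma with or without the block.

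**Figure D3:**
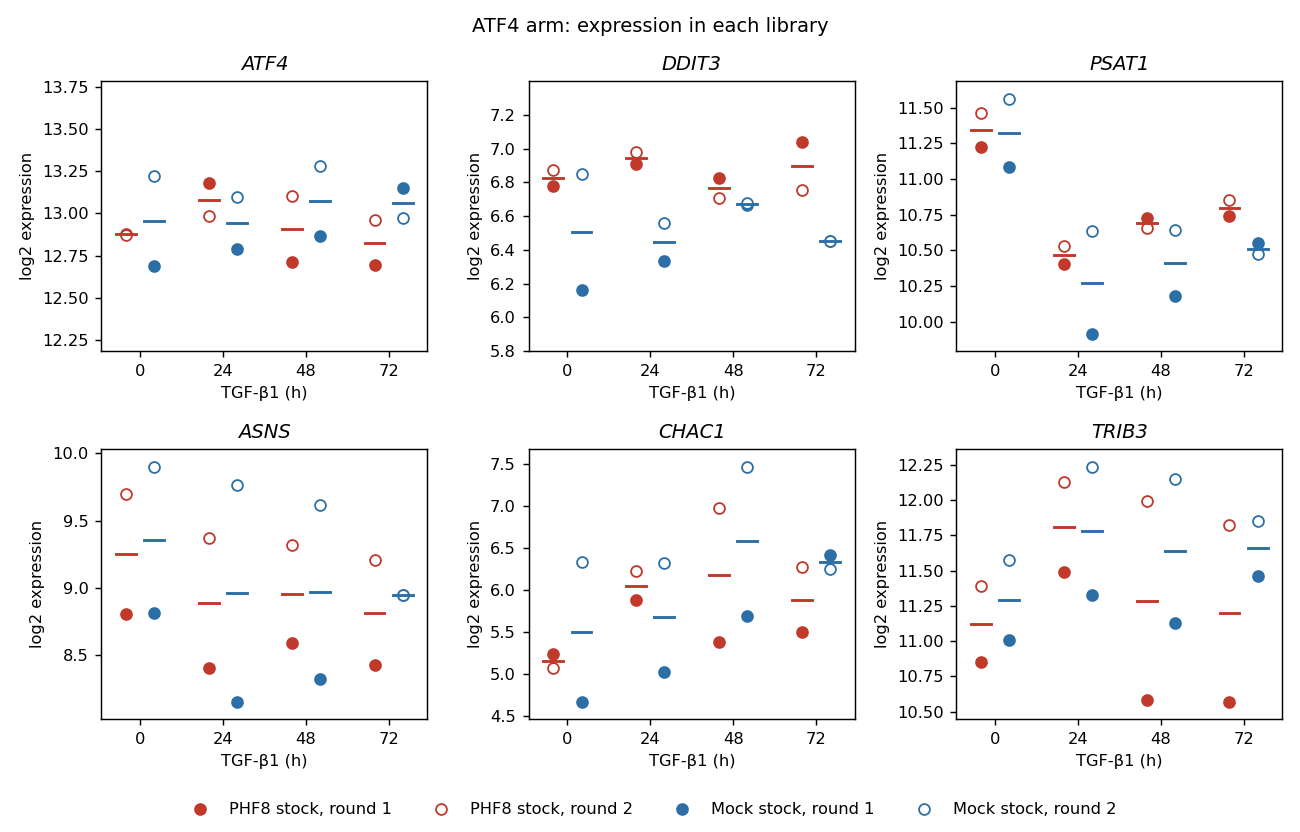
Log2 expression of ATF4, DDIT3, PSAT1, ASNS, CHAC1 and TRIB3 (vertical axis) in each library against hours of TGF-β1 (horizontal axis), with filled points for round 1, open points for round 2, PHF8 in red left of Mock in blue, and bars at the mean of 2 libraries. PSAT1 is lower in every treated library, while ASNS and TRIB3 are higher in round 2 in all 8 groups.

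PSAT1 was the exception, and it fell. It encodes phosphoserine aminotransferase, the second enzyme of serine synthesis. PSAT1 in the PHF8 stock stood at 11.22 and 11.46 untreated, 10.41 and 10.53 at 24 h, 10.73 and 10.66 at 48 h, and 10.74 and 10.86 at 72 h. PSAT1 in the Mock stock stood at 11.08 and 11.56 untreated, 9.92 and 10.63 at 24 h, 10.18 and 10.65 at 48 h, and 10.55 and 10.47 at 72 h. All treated libraries lay below both untreated libraries of their stock. The difference in the PHF8 stock was -0.88 ± 0.23 at 24 h (adjusted p = 0.0325 in limma), -0.65 ± 0.23 at 48 h (adjusted p = 0.0912, with the block 0.0142) and -0.55 ± 0.23 at 72 h (adjusted p = 0.174, with the block 0.0364). Mock cells gave -1.05 ± 0.23, -0.91 ± 0.23 and -0.81 ± 0.23 at 24, 48 and 72 h (adjusted p = 0.0115, 0.0203 and 0.037). It was the only member called lower without the block, where 4.71%, 5.68% and 4.17% of all genes were called lower at 24, 48 and 72 h in the PHF8 stock, and 7.39%, 7.58% and 6.07% in the Mock stock. With the block, which called 14.4%, 13.8% and 11.6% of all genes lower in the PHF8 stock and 17.5%, 16.9% and 15% in the Mock stock, it was called lower in all 6 comparisons. PSAT1 lost 13 of 64 refits, all 4 calls among them without the untreated round 2 library.

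The other 9 genes of the arm were not called without the block. TRIB3, a pseudokinase that feeds back on ATF4, ranged between 10.57 and 12.24, with differences between 0.08 and 0.69. The value at 24 h in the PHF8 stock, 0.69 ± 0.548, had adjusted p = 0.457, or 0.0309 with the block, with 0.64 in round 1 and 0.74 in round 2. CHAC1, which degrades glutathione, had uncalled differences of up to 1.08 ± 0.714 in the Mock stock at 48 h (adjusted p = 0.334). Its untreated Mock libraries stood at 4.67 and 6.34, a gap wider than any of these differences. In the PHF8 stock its treated libraries all lay above the untreated ones, with 5.38 to 6.98 treated against 5.07 and 5.23 untreated. SESN2, a sensor protein that restrains mTORC1, had differences between 0.09 and 0.26. ATF3, a stress-induced transcription factor, lay low, between 3.90 and 4.96, with differences between -0.08 and 0.30. CEBPB, a transcription factor that pairs with ATF4 and CHOP, had differences between -0.21 and 0.09 in the PHF8 stock and between 0.22 and 0.30 in the Mock stock.

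The remaining enzymes of amino acid and one-carbon metabolism had mostly negative differences, with no call without the block. ASNS, asparagine synthetase, had differences between -0.43 and -0.30, each smaller than the mean gap between its rounds. SHMT2, which takes the carbon unit from serine in mitochondria, had differences between -0.34 and -0.16. The value at 48 h in the Mock stock had adjusted p = 0.12 in limma, or 0.0438 with the block. MTHFD2, the next mitochondrial enzyme, had differences between -0.23 and -0.09 and was not called. PHGDH, the first enzyme of serine synthesis, was not called and had differences between -0.14 and 0.14. Over single libraries, all treated libraries stood above the untreated ones in 1 of 12 ATF4 arm genes in the PHF8 stock and 0 in the Mock stock, and below them in 2 in the PHF8 stock and 3 in the Mock stock, where 17% and 21.1% of all genes stood below.

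Pseudogenes with the member's name are annotated for ATF4, ASNS, PSAT1, MTHFD2, XBP1, HSPA5 and PDIA3, 7 of the 34. Reads shared with such copies could have been split between them or discarded, so the levels of these genes are less certain.

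Of the 7 genes with ERSE, 5 were called higher at 24 h in the PHF8 stock and 6 in the Mock stock, and CANX was called in neither. DNAJB9, DNAJC3, DNAJB11, MANF, PDIA4 and SEC61B rose with none of the searched letters in the window. Beyond the members, 8 tested genes held ERSE, and 1 of them was called higher at 24 h in each stock. Of 11 other tested genes with ERSE-II, 0 were called in the PHF8 stock at 24 h, and 2 were called higher and 1 lower in the Mock stock. CARE was held by 228 other tested genes, of which 17 were called higher and 10 lower at 24 h in the PHF8 stock, and 26 higher and 17 lower in the Mock stock. These counts lie near the shares of all tested genes, 7.01% higher and 4.71% lower in the PHF8 stock and 9.92% higher and 7.39% lower in the Mock stock.

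Other genes of both pathways, 141 tested of 143 in 9 lists, were counted at the same threshold. Beside these counts stand the shares of all tested genes called higher without the block, which were 7.01%, 6.92% and 5.22% at 24, 48 and 72 h in the PHF8 stock and 9.92%, 9.72% and 8.29% in the Mock stock. With the block they were 14.9% at 24 h in the PHF8 stock and 18.4% in the Mock stock. Of 16 genes of transport between ER and Golgi, 9 were called higher at 24 h in the PHF8 stock and 10 in the Mock stock, with medians of 0.48 and 0.53. At 48 and 72 h the counts were 9 and 8 in the PHF8 stock and 9 and 10 in the Mock stock. KDELR3, a receptor that returns escaped chaperones to the ER, rose by 1.85 ± 0.281 in the PHF8 stock (adjusted p = 0.00279 in limma) and by 2.00 ± 0.281 in the Mock stock (adjusted p = 0.00124). SEC24D, a coat subunit of vesicles leaving the ER, rose by 1.33 ± 0.151 in the PHF8 stock and by 1.56 ± 0.151 in the Mock stock. Of 20 further folding genes, 4 were called higher in the PHF8 stock and 6 in the Mock stock at 24 h, and 0 lower. P4HB, a disulfide isomerase that is also a subunit of collagen prolyl hydroxylase, rose by 0.60 ± 0.107 and 0.78 ± 0.107 in the PHF8 and Mock stocks. HSPA13, an HSP70 relative, rose by 0.57 ± 0.132 in the PHF8 stock and 0.67 ± 0.132 in the Mock stock. Of 12 tested degradation genes, 5 were called higher in the PHF8 stock and 6 in the Mock stock. SELS, a partner of the degradation channel, rose by 0.92 ± 0.217 in the PHF8 stock and 0.83 ± 0.217 in the Mock stock, and ERLEC1, a lectin of that pathway, by 0.71 ± 0.209 and 0.81 ± 0.209. With the block, 11 folding genes were called higher at 24 h in the PHF8 stock and 12 in the Mock stock, and 8 degradation genes in the PHF8 stock and 9 in the Mock stock.

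Entry into the ER gave a smaller median. Of 22 further translocation and glycosylation genes, 5 were called higher in each stock at 24 h, with medians of 0.29 in the PHF8 stock and 0.26 in the Mock stock, and 12 in each stock were called with the block. SSR3, a subunit of the translocon-associated complex, rose by 0.77 ± 0.143 in the PHF8 stock and 0.83 ± 0.143 in the Mock stock, and OSTC, a subunit of the glycosylation enzyme, by 0.77 ± 0.134 and 0.80 ± 0.134. Among 9 tested regulators of the ER, 0 were called in the PHF8 stock at 24 h in limma, where 3 were called with the block, and 1 in the Mock stock. CREB3L2, an ER-bound transcription factor of secretion, had 0.77 ± 0.243 in the PHF8 stock (adjusted p = 0.0631) and rose by 1.13 ± 0.243 in the Mock stock (adjusted p = 0.0103). CREB3, a relative of it, had 0.78 ± 0.268 in the PHF8 stock and 0.72 ± 0.268 in the Mock stock, called without the block at 48 h only. At 48 and 72 h, 5 and 5 of the folding genes were called higher in the PHF8 stock and 6 and 6 in the Mock stock, and 4 and 4 of the degradation genes in the PHF8 stock and 6 and 6 in the Mock stock. The translocation genes gave 5 and 4 in the PHF8 stock and 5 and 5 in the Mock stock, and the ER regulators 3 and 1 in each stock, with 1 regulator lower at 48 h in the PHF8 stock.

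Without the block, the lists beside ATF4 held more calls lower than higher at 24 h, apart from the transporters. Of all tested genes, 4.71%, 5.68% and 4.17% were called lower at 24, 48 and 72 h in the PHF8 stock and 7.39%, 7.58% and 6.07% in the Mock stock. Of 15 further enzymes of amino acid and one-carbon metabolism, 2 were called lower at 24 h in the PHF8 stock and 3 in the Mock stock, and 0 higher, with medians of -0.26 and -0.25. PSPH, the last enzyme of serine synthesis, fell at 24 h by 0.46 ± 0.133 in the PHF8 stock (adjusted p = 0.0472 in limma) and by 0.49 ± 0.133 in the Mock stock (adjusted p = 0.0291). At 48 and 72 h PSPH stayed called in the Mock stock (adjusted p = 0.0281 and 0.0297). In the PHF8 stock -0.36 and -0.33 were not called (adjusted p = 0.106 and 0.16, with the block 0.046 and 0.0735). Of 19 genes of cytosolic tRNA charging and export, 2 were called lower in the PHF8 stock and 6 in the Mock stock at 24 h. IARS, isoleucyl-tRNA synthetase, was lower at all times in both stocks, with differences between -0.41 and -0.55, and KARS, lysyl-tRNA synthetase, had -0.47 ± 0.169 in the PHF8 stock (adjusted p = 0.0954) and -0.56 ± 0.169 in the Mock stock (adjusted p = 0.0407). Among 12 amino acid transporters 1 was called higher in each stock at 24 h and 0 lower. With the block, 5 of the enzymes were called lower at 24 h in the PHF8 stock and 6 in the Mock stock, and 5 of the tRNA charging genes in the PHF8 stock and 7 in the Mock stock, beside 14.4% and 17.5% of all tested genes. The block also gave 1 enzyme and 1 tRNA charging gene called higher at 24 h in each stock. Of the transporters it called 1 higher and 1 lower at 24 h in the PHF8 stock, and 1 higher and 2 lower in the Mock stock. At 72 h in the PHF8 stock it called 2 enzymes higher and 0 lower. Without it, at 48 and 72 h, 1 and 0 of the enzymes were called lower in the PHF8 stock and 2 and 1 in the Mock stock, and 1 and 1 of the tRNA charging genes in the PHF8 stock and 5 and 2 in the Mock stock. The transporter called was SLC1A4, a neutral amino acid transporter, which rose at 24 h by 1.61 ± 0.398 in the PHF8 stock and 1.63 ± 0.398 in the Mock stock. At 72 h SLC1A4 had 1.36 ± 0.398 in the PHF8 stock, not called in limma (adjusted p = 0.0551, with the block 0.00176). The Mock stock gave 1.43 ± 0.398 at 72 h, which was called (adjusted p = 0.0345).

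Of 16 further regulators of the stress response, 1 was called lower at 24 h in the PHF8 stock, and 2 lower and 1 higher in the Mock stock, with a median of -0.15 in the PHF8 stock and -0.14 in the Mock stock. These counts lie near the shares of all tested genes called lower, 4.71% in the PHF8 stock and 7.39% in the Mock stock. At 48 and 72 h, 2 and 2 were called lower and 1 and 1 higher in the PHF8 stock, and 2 and 2 lower and 1 and 2 higher in the Mock stock. With the block, 5 were called lower and 1 higher at 24 h in the PHF8 stock, and 3 lower and 2 higher in the Mock stock, beside 14.4% and 17.5% of all tested genes called lower. GDF15, a secreted cytokine that stress induces, was lower in all 6 comparisons. Its log2 difference was -1.35 ± 0.200 at 24 h, -1.89 ± 0.200 at 48 h and -1.83 ± 0.200 at 72 h in the PHF8 stock (adjusted p up to 0.00243 in limma), and -1.37 ± 0.200, -2.02 ± 0.200 and -2.04 ± 0.200 in the Mock stock (adjusted p up to 0.0015). VLDLR, a lipoprotein receptor that PERK and ATF4 can induce, rose by 1.66 ± 0.332 in the Mock stock at 24 h (adjusted p = 0.00712) and had 1.11 ± 0.332 in the PHF8 stock (adjusted p = 0.0529, with the block 0.0275). At 48 and 72 h VLDLR was called in both stocks. The PHF8 stock gave 1.48 and 1.22 (adjusted p = 0.0148 and 0.0414 in limma) and the Mock stock 1.76 and 1.92 (adjusted p = 0.0046 and 0.0034).

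**Figure D4:**
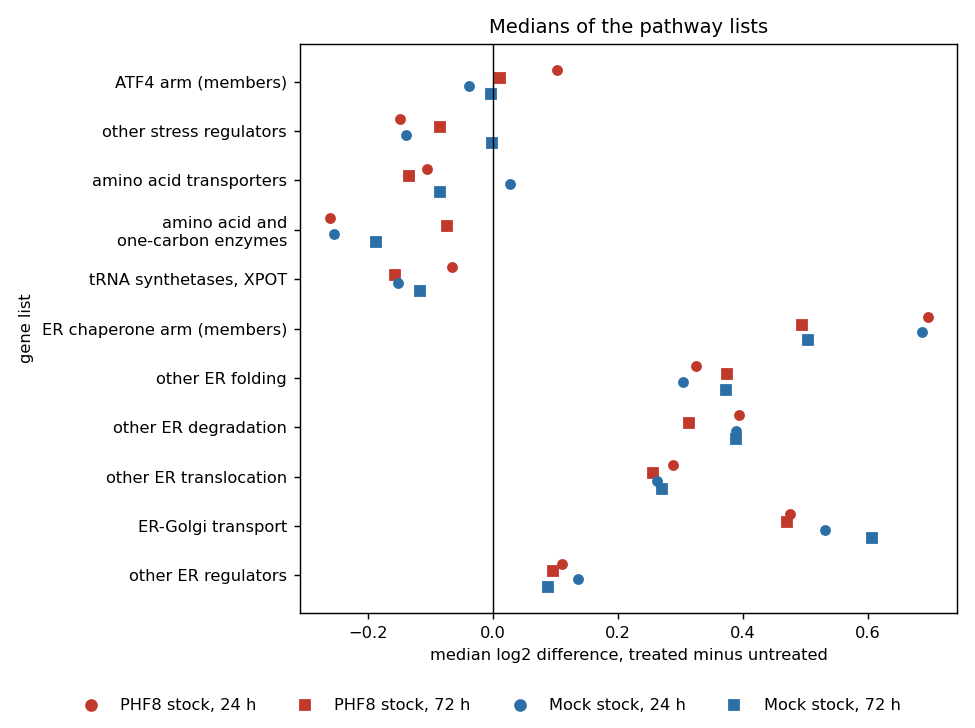
Median log2 difference between treated and untreated cells (horizontal axis) of the genes in each list (vertical axis), with circles for 24 h, squares for 72 h, PHF8 in red above Mock in blue. Lists of the ER lie right of 0 and the lists beside ATF4 lie near or left of it; 48 h is not drawn.

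The 2 stocks were then compared, to see whether PHF8 overexpression went with another level of these genes or another response. In limma, 0 members were called between the stocks untreated, at 24 h or at 48 h, where 0.00737% of all genes were called, or at 72 h, where 0.0147% were called. Over the mean of the 4 conditions 0 members were called, beside 1.69% of all genes. At an unadjusted p under 0.05 there was 1 member untreated (CEBPB), 1 at 24 h (DDIT3), 0 at 48 h, 0 at 72 h, and 4 over the mean (DDIT3, SHMT2, DNAJB11 and SEC61B), against 634, 532, 393, 556 and 2191 of all genes. With the round as a block in limma, 0 members were called in any single condition, where 0.0369% of all genes were called untreated, 0.0442% at 24 h, 0.0147% at 48 h and 0.0958% at 72 h, and the lowest adjusted p of a member was 0.365. With the block, SEC61B was called over the mean, where 9.11% of all genes were called. Its difference was -0.14 ± 0.0467 (SE, n = 8 per stock), with adjusted p = 0.178, or 0.0476 with the block, and -0.13 in round 1 and -0.15 in round 2.

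**Figure D5:**
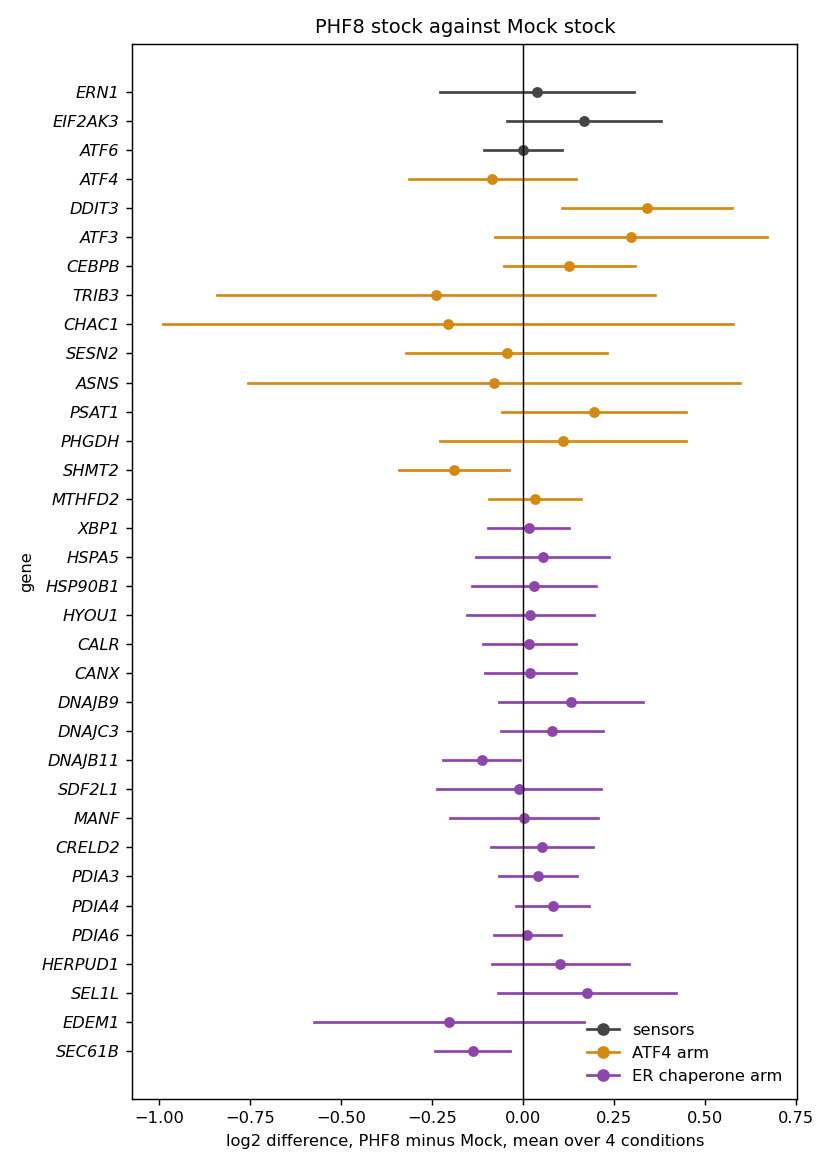
Log2 difference between the PHF8 and Mock stocks, as the mean over 4 conditions (horizontal axis), for each of the 34 genes (vertical axis), with points for the estimate and lines for its 95% interval. In limma without the block, the intervals of DDIT3, SHMT2, DNAJB11 and SEC61B leave out 0 before adjustment, and none of the 34 is called after it. With the block SEC61B is called.

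The largest of these differences was that of DDIT3, 0.34 ± 0.107 with adjusted p = 0.148 in limma and 0.0564 with the block, and with 0.48 in round 1 and 0.20 in round 2. The 95% interval was 0.11 to 0.57. SHMT2 was lower in the PHF8 stock by value, with -0.19 ± 0.0688 and adjusted p = 0.208, and DNAJB11 had -0.11 ± 0.0479 with adjusted p = 0.268. For XBP1 the interval was -0.10 to 0.13, for HSPA5 -0.13 to 0.24 and for ATF4 -0.31 to 0.14. Those of CHAC1 (-0.99 to 0.58), ASNS (-0.76 to 0.59) and TRIB3 (-0.84 to 0.36) were wide, and differences of either sign within them were not resolved. The response to TGF-β1 was compared between stocks by a joint test of all 3 times. It called 0 of all tested genes in limma with or without the block, and 0 members and 60 of all genes had an unadjusted p under 0.05. At 24 h the PHF8 response minus the Mock response was 0.73 ± 1.01 (SE) for CHAC1, 0.04 ± 0.87 for ASNS and 0.20 ± 0.775 for TRIB3. For XBP1 it was 0.01 ± 0.144. The absence of a call does not show an equal response. The lowest unadjusted p among members in the joint test without the block was that of CEBPB (0.237). CEBPB was 0.40 higher in untreated PHF8 cells than in untreated Mock cells (adjusted p = 0.993).

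The sequencing rounds differed in some of these genes. Round 2 was compared with round 1 in the fit with the round as a term, a comparison added after the values were seen, and 40% of all tested genes were called, 20.1% higher and 19.9% lower in round 2. Of the 34 members 14 were called, 11 higher and 3 lower in round 2. In the ATF4 arm 6 of 12 were called higher and 0 lower, with a median of 0.27 beside -0.01 over all genes. ASNS was higher in round 2 by 0.92 ± 0.136 (SE, n = 8 per round, adjusted p = 0.00042 in limma) and TRIB3 by 0.84 ± 0.106 (adjusted p = 0.000156), each in 8 of 8 groups. CHAC1 was higher by 0.89 ± 0.236 (adjusted p = 0.0113) in 6 of 8 groups. SESN2, ATF3 and PSAT1 were the others. In the ER chaperone arm 3 were called higher and 2 lower, with a median of -0.02. EDEM1 was higher by 0.53 ± 0.0586 (adjusted p = 7.39e-05) in 8 of 8 groups, MANF by 0.25 ± 0.0524 and HSP90B1 by 0.20 ± 0.0468. HYOU1 fell by 0.20 ± 0.0469 and SEL1L by 0.28 ± 0.0698, lower in all 8 groups. Among the sensors ERN1 and ATF6 were higher and EIF2AK3 lower in round 2. The round is the replicate number, so rounds and replicates cannot be told apart.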

How the data were processed

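Libraries were rRNA-depleted and stranded and were read as 50-base paired ends, per the labels' protocols. The submitters' processing notes name TopHat2 2.0.13, featureCounts of Subread 1.4.6, DESeq2 and the build hg19, and the deposited table holds 1 log2 value per gene and library. The authors' transformation is not named in the sources used here; some such transformations draw low values together, in which case differences of weakly expressed genes are understated. Read counts were not used, so the depth behind a value is unknown and no counting interval is given. Of the 23368 entries, 28 symbols turned into dates were left out, 4064 were at 0 in all libraries, and genes with a value of at least about 3.3 in at least 2 libraries were tested. In the same workbook 4 columns of values of another sheet were not used.

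All 16 libraries and their deposited log2 values entered 1 fit in R 4.3.3 with the package limma 3.58.1, with 1 mean per group, 8 residual degrees of freedom and an intensity trend, and p-values were adjusted by Benjamini-Hochberg at 0.05. A gene is called at an adjusted p under 0.05 over all tested genes. The labels give replicate numbers as sequencing rounds, so the round pairs the libraries; over 28 pairs of groups, same-numbered libraries deviated together with correlations of 0.206 to 0.749. A fit with the round as a block leaves 7 residual degrees of freedom. Alternatives were the block, no filter, quantile normalization, no trend and leaving out each library. The scripts were tested on simulated data.

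The members, the 9 further lists with 143 symbols and the marker lists were chosen with earlier results of these data known. VIMP was looked up as SELS. The 22 genes given in every library and up to 2 genes per further list were taken by a rule on roles, calls and size fixed with the design. Of these, 1 gene that this rule takes is not reported here.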

Additional observations from a re-analysis of the deposited data

How the results depend on the processing

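With the round as a replicate block, the genes called were 3974, 3823 and 3174 at 24, 48 and 72 h in the PHF8 stock, and 4863, 4740 and 4272 in the Mock stock. Between stocks the block gave 5 genes untreated, 6 at 24 h, 2 at 48 h, 13 at 72 h and 1236 over the mean, and it called 121 genes between 72 and 24 h. Among members it gave 19 at 48 h in the PHF8 stock, 1 over the stock mean and 1 between 72 and 24 h. It ended no member's call. Without the filter, 4 genes were called between untreated stocks. Leaving out 1 library at a time, members called ranged from 5 to 16, 3 to 11 and 1 to 11 at 24, 48 and 72 h in the PHF8 stock, and from 11 to 17, 5 to 15 and 3 to 13 in the Mock stock. All genes called ranged from 329 to 1702, 567 to 1725 and 394 to 1267 in the PHF8 stock, and from 649 to 2397, 791 to 2298 and 619 to 1957 in the Mock stock. The stock difference at 72 h ranged from 1 to 2 genes, that over the mean from 60 to 286, 72 against 24 h from 0 to 6, and the rounds from 4638 to 5126 genes and 11 to 16 members. Over the 4760 member values recomputed, 0 called values turned their sign. Calls were lost in 6 values without the filter, 4 with quantile normalization and 8 without the trend. The cause of these changes was not tested.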
